A study of Mus musculus with 2 samples.

Results

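Pericytes of the cochlear capillaries numbered 1043 of 20133 quality-filtered cells in the drug library and 654 of 17423 in the noise-only library. They were selected on measured values: at least 500 UMIs (counted RNA molecules), at least 300 genes and at most 20% mitochondrial UMIs, at least 1 UMI of 3 or more of Rgs5, Vtn, Higd1b, Kcnj8, Abcc9 and Ndufa4l2, and no UMI of Myh11, Cdh5 or Pecam1. RNA was captured by 10x Genomics 3′ v3.1 droplets from trypsin-dissociated cochlear tissue of C57BL/6J mice aged 4 to 6 weeks, and each library pooled 5 ears. Drug ears received an agent at 90 mg/ml before noise, which the series title abbreviates as VPA and the labels do not spell out. Noise-only ears were the untreated contralateral ears of those mice. Every ear of both libraries was exposed for 2 h to an octave band of 8 to 16 kHz at 105 dB and taken 2 days later, so there is no ear without noise among these groups. How the drug was delivered is not stated, so whether it also reached the noise-only ears cannot be told.

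Pericytes are mural cells that lie on capillaries within the basement membrane they share with the endothelium. Endothelial PDGF-B holds them there through the receptor Pdgfrb, Notch3 keeps their mural identity, and a potassium channel that senses ATP, vasoactive receptors and a modest contractile apparatus let them adjust capillary flow. In the cochlea they are dense in the stria vascularis and spiral ligament, where they are part of the blood-labyrinth barrier, and loosening of strial pericytes after loud noise is a known response in rodents.

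Kcnj8 and Abcc9 encode the pore (Kir6.1) and the sulphonylurea receptor (SUR2) of that ATP-sensitive channel. Both genes lie on mouse chromosome 6 on the minus strand, and their promoters are shown because both are among the genes that chose the cells described here. The stretches run 5′ to 3′ from 250 bases before to 10 bases after the RefSeq start (GRCm38.p6), at chr6:142571605-142571864 for Kcnj8 and chr6:142702265-142702524 for Abcc9. Capitals mark TGGGAA, the core letters bound by RBPJ, the DNA-binding factor of Notch signalling.
Kcnj8: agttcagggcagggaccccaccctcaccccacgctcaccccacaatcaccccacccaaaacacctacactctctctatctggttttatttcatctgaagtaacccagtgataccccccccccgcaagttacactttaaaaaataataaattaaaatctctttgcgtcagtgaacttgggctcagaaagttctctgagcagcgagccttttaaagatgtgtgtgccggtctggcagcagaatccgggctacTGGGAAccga
Abcc9: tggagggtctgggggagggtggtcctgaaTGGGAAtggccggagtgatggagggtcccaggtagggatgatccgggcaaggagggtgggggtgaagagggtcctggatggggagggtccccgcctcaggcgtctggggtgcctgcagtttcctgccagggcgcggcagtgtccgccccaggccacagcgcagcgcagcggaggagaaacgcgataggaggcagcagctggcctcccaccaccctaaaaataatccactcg
In RefSeq windows of 300 bases, which run 50 bases past the start, TGGGAA on either strand was present in 3 of the 4 promoters found for the 6 selecting genes (Kcnj8, Abcc9 and Vtn). It was present in 5 of 18 promoters of other pericyte markers and in 25.6% of all 32851 promoters. ACGTG, the core of the hypoxia-response element, was in 0 of those 4, in 5 of those 18 and in 19.6% of all. Neither motif contains the other, and a match describes the sequence alone.

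With 1 pooled library per group there is no replicate, so no difference below has a test. Intervals are 95% and cover counting error only; they do not include the spread between ears, and UMIs of different genes in 1 cell are not independent. The deposited lists held 21773 drug and 18545 noise-only barcodes with 39939170 and 38380393 UMIs. Pericytes were among the shallower cells, with a median of 863 UMIs and 561 genes in the drug library and 1020 UMIs and 653 genes in the noise-only library. Their summed UMIs were 1465264 and 1032686, so that 3 counts, the limit a count of 0 allows, stood at 2.05 and 2.91 CPM (counts per 1000000 UMIs of the pericyte sum). Of 111 barcode sequences present in both files, 9 were drug pericytes and 4 noise-only pericytes, and 0 were pericytes in both.

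Pericyte markers that played no part in the selection were present in the selected cells. Pdgfrb, the receptor for PDGF-B, had a UMI in 54.2% of drug and 63.5% of noise-only pericytes, against 3.01% and 2.45% of endothelial cells. After every cell was thinned to 1000 UMIs, with 625 drug and 321 noise-only pericytes too shallow to enter, Pdgfrb stood at 37.6% and 47.4% of pericytes and at 1.90% and 1.01% of endothelial cells. Cox4i2, a cytochrome oxidase subunit of oxygen-sensing cells, had a UMI in 34.1% and 43.9% of pericytes, against 0.658% and 0.843% of endothelial cells. Both genes were also frequent in smooth muscle cells, Pdgfrb in 31.0% and 41.1% and Cox4i2 in 27.0% and 37.4%. In thinned smooth muscle cells Pdgfrb was in 19.6% and 23.5%. Cox4i2 was in 17.2% and 24.2% of them, against 24.9% and 31.2% of thinned pericytes. The median endothelial cell held 1375 UMIs in the drug and 1710 in the noise-only library, more than a pericyte. Ranked by pericyte level over that of the remaining cells, which leave out smooth muscle and endothelial cells here and wherever other cells or the rest are named, the leading 15 genes included Kcnj8, Higd1b, Ndufa4l2, Gm13861, Gja4, Rgs5, Slc38a11, Vtn, Tcf15, Foxs1, Cox4i2, Aspn and Notch3, of which 5 are selecting genes. Gja4, a gap-junction connexin, was 37.8 times and Foxs1, a forkhead transcription factor, 34.3 times as high as in the rest of the drug library, against 66.1 and 51.5 times in the noise-only library. Neither set pericytes apart from smooth muscle cells, where Gja4 stood at 188 and 208 CPM, against 132 and 155 CPM in pericytes, and Foxs1 at 93.9 and 116 CPM, against 86.0 and 95.9 CPM. These ratios describe cells chosen by related genes and test nothing.

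**Figure D1:**
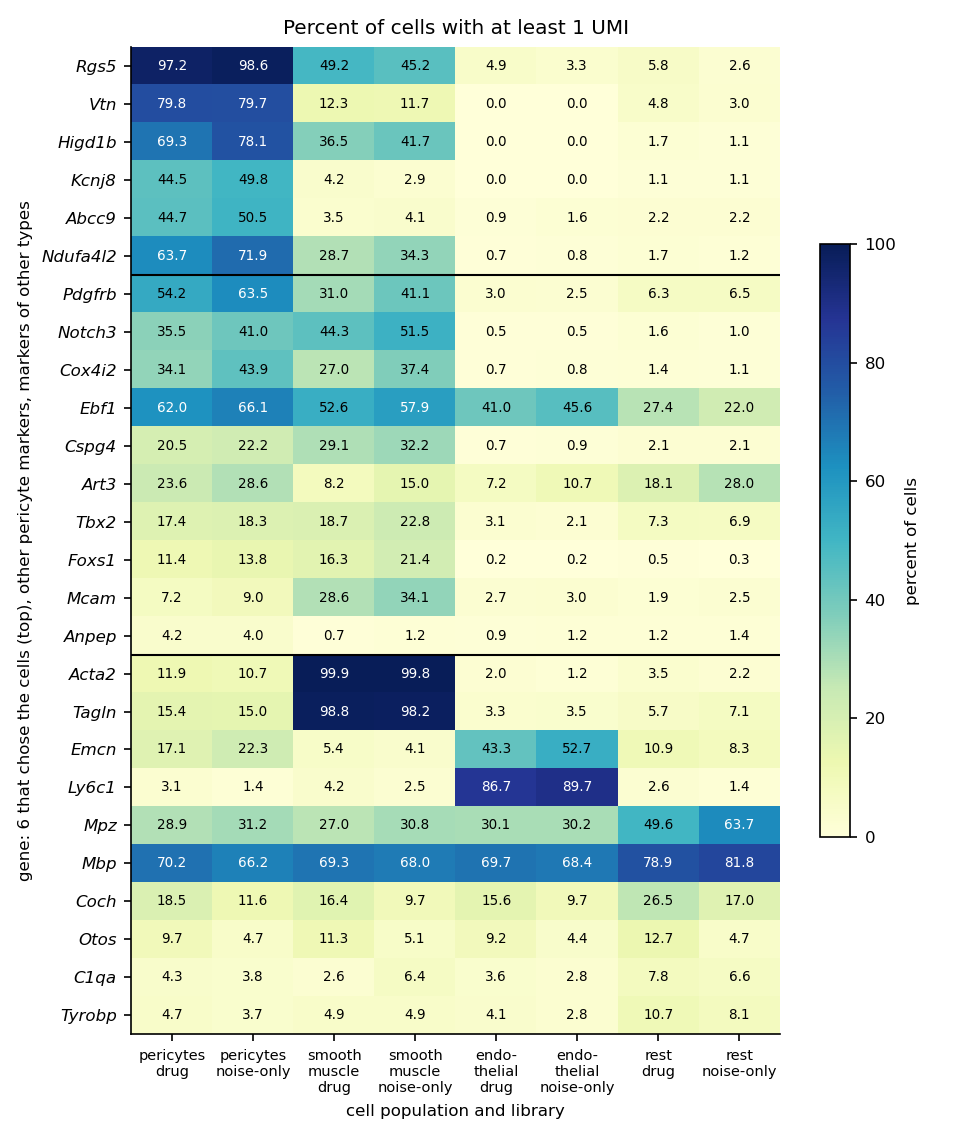
Percent of cells with at least 1 UMI of each gene (rows) in pericytes, smooth muscle cells, endothelial cells and all other cells of the drug and noise-only libraries (columns). The top 6 genes chose the pericytes, and Vtn, Higd1b and Kcnj8 are 0 in endothelial cells by definition. Pdgfrb is in 54.2% and 63.5% of pericytes, and Mbp, a myelin gene, lies between 66.2% and 81.8% in every column.

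Smooth muscle genes were less frequent in these cells than in the smooth muscle cells, in part by definition. Myl9, a regulatory myosin light chain that defined neither population, had a UMI in 62.3% of drug and 73.1% of noise-only pericytes, against 95.6% and 96.3% of smooth muscle cells. Acta2, smooth muscle actin, had a UMI in 11.9% of drug and 10.7% of noise-only pericytes, against 99.9% and 99.8% of the smooth muscle cells, but Acta2 and Cnn1 help define the muscle cells, and pericytes lack Myh11 by rule. Cnn1, a calponin of mature muscle, had 1 UMI in all drug pericytes and 0 in noise-only pericytes, where 0 allows up to 2.91 CPM. RNA of other cell types was also found. Of the 10 endothelial markers, 9 had a UMI in fewer than 5% of pericytes of either library. The summed level of all 10 was 485 and 414 CPM, against 10381 and 12036 CPM in endothelial cells. Ly6c1 and Emcn are among these markers and helped choose the endothelial cells, so that gap too is in part by definition. Mbp was in 70.2% and 66.2% of pericytes and in 69.7% and 68.4% of endothelial cells, types that should lack it, and the source of that RNA was not tested. The 8 erythroid markers summed to 31881 and 24793 CPM and the 10 Schwann markers to 6961 and 8873 CPM. Erythroid RNA was concentrated, passing 3% of a cell's UMIs in only 36 drug and 15 noise-only pericytes.

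Selected cells varied in how much pericyte RNA they held, and mainly with depth. Cells of more than 3000 UMIs were 89 (8.53%) of drug and 58 (8.87%) of noise-only pericytes, yet held 34.0% and 35.3% of all pericyte UMIs. Rgs5, a regulator of G-protein signalling, stood at 1162 and 1443 CPM in them, against 6539 and 8122 CPM in cells of at most 3000 UMIs. Pdgfrb, which the rule did not use, stood at 153 and 198 CPM in the deep cells and at 820 and 919 CPM in the others. Erythroid markers stood at 48140 and 49166 CPM in the deep cells and higher, at 112890 and 54045 CPM, in the next shallower range of depth plotted. Neuron markers were at 3441 and 1989 CPM in the deep cells and at 175 and 204 CPM in that next range. In the shallowest cells, of under 1000 UMIs, neuron markers were at 351 and 205 CPM and erythroid markers at 1579 and 838 CPM. Scrublet, a doublet caller, marked 207 (19.8%) of drug and 78 (11.9%) of noise-only pericytes, against 12.9% and 4.62% of all quality-filtered cells.

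**Figure D2:**
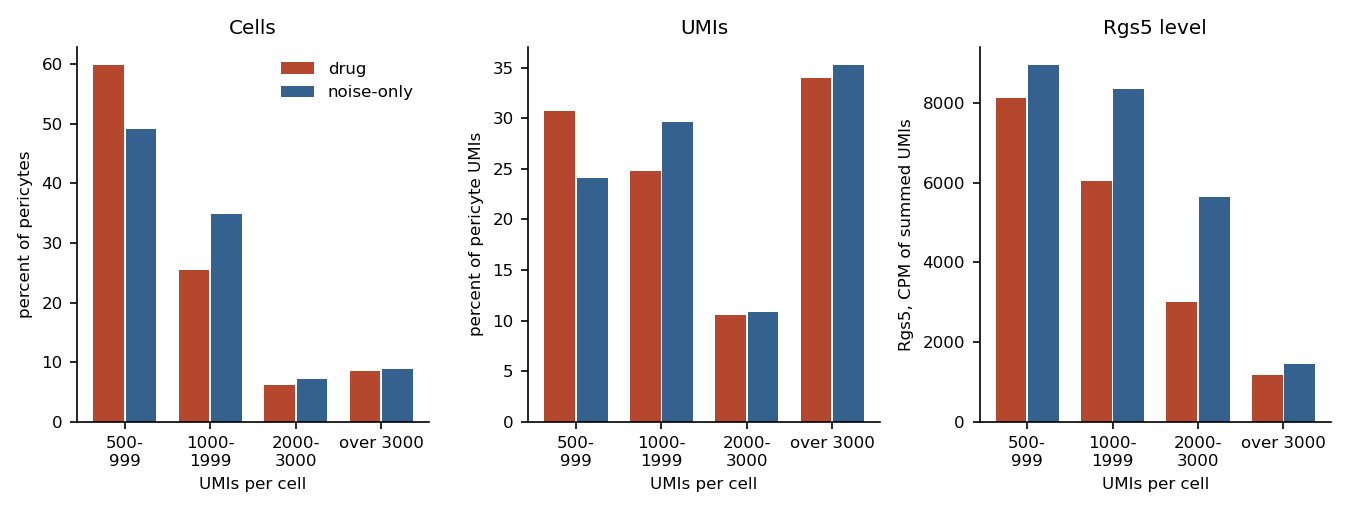
Percent of pericytes (left), percent of pericyte UMIs (middle) and the Rgs5 level in CPM (right) by UMIs per cell, with drug bars left of noise-only bars. Cells over 3000 UMIs are 8.53% and 8.87% of pericytes, hold 34.0% and 35.3% of the UMIs and have the lowest Rgs5 level, 1162 and 1443 CPM. Rgs5 is a selecting gene, so its fall with depth is set in part by the rule.

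The threshold of 3 selecting genes passed through a gradual range. Just inside it, 376 drug and 170 noise-only cells had exactly 3, and Pdgfrb was in 48.1% and 60.0% of them. Just outside, 331 and 165 cells had exactly 2, with Pdgfrb in 35.3% and 34.5%. All 6 genes were seen in 6.42% of drug and 14.4% of noise-only pericytes. The absence of Myh11, Cdh5 and Pecam1 removed 335 (24.3%) and 205 (23.9%) of the cells with at least 3 selecting genes, mostly through Myh11.

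Within the pericytes, gene pairs marked subsets, here split by a UMI of 1 gene after the values were seen. Pericytes with an Acta2 UMI, 124 in the drug and 70 in the noise-only library, had Tagln (transgelin, a contractile protein) at 1319 and 1235 CPM, against 92.8 and 92.0 CPM in pericytes without one. The same cells had less Kcnj8, at 339 and 284 CPM, from 62 and 37 UMIs, against 482 and 554 CPM without Acta2. They also had less Vtn, vitronectin, at 1494 and 1327 CPM against 1917 and 2062 CPM. Cells with Acta2 were deeper, at a median of 1090.5 and 1360 UMIs against 847 and 978, and the part of depth was not tested. A different subset carried Atp13a5, a P5-type ATPase known from mouse brain pericytes, in 96 (9.20%) and 44 (6.73%) cells. These had Vtn at 4496 and 3190 CPM, against 1598 and 1842 CPM in the other pericytes. They had Mgp, the calcification inhibitor matrix Gla protein, at 959 and 359 CPM, against 2511 and 3310 CPM. The transcription factor Zic1 and the amino acid transporter Slc6a20a were also higher in cells with Atp13a5, at 260 and 195 CPM for Zic1 against 61.6 and 25.7 CPM in cells without it, and at 223 and 123 CPM for Slc6a20a against 24.8 and 5.35 CPM. The labels do not give the vessels from which any of these cells came.

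Pericytes made up a larger share of the drug library, but not of its vascular cells. They were 5.18% (exact binomial interval 4.88 to 5.50) of drug cells and 3.75% (3.48 to 4.05) of noise-only cells, a ratio of 1.38 (1.2504 to 1.52). Smooth muscle cells had a ratio of 1.32 (1.17 to 1.48) and endothelial cells 1.41 (1.32 to 1.51). Among pericytes, smooth muscle and endothelial cells together, pericytes were 26.7% of 3912 drug cells and 26.7% of 2446 noise-only cells, a ratio of 0.997 (0.903 to 1.10). Outside cells with at least 5 of 7 Schwann markers, a denominator chosen after the values were seen, the shares were 7.33% and 6.69%, with a ratio of 1.10 (0.992 to 1.21). Cell shares depend on dissociation and capture, whose part was not tested.

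Across the pericyte transcriptome, 6860 genes had at least 50 UMIs over both sums. The median log2 ratio of drug over noise-only CPM was -0.06, with quartiles of -0.25 and 0.14. By a rule of size, 278 genes (4.05%) were at least 1.5-fold higher in drug pericytes and 318 (4.64%) at least 1.5-fold lower. Counts of list members past 1.5-fold given below have these shares as their background. With TMM factors the split was 357 higher and 245 lower, with DESeq2 size factors 347 and 253, and without the cell richest in each gene 322 and 243. Of genes with at least 200 UMIs, 43 were higher and 35 lower among 2069. Against this background 0 of the 6 selecting genes passed 1.5-fold in either direction, and all 6 had a ratio below 1, which is a description since they chose the cells. Rgs5 stood at 4711 CPM in drug and 5765 CPM in noise-only pericytes, a ratio of 0.817 (0.789 to 0.846). Ndufa4l2, a hypoxia-induced respiratory chain subunit, stood at 726 and 902 CPM, and Higd1b at 903 and 1055 CPM. Kcnj8 was at 464 and 520 CPM, Abcc9 at 452 and 503 CPM and Vtn at 1864 and 1970 CPM.

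**Figure D3:**
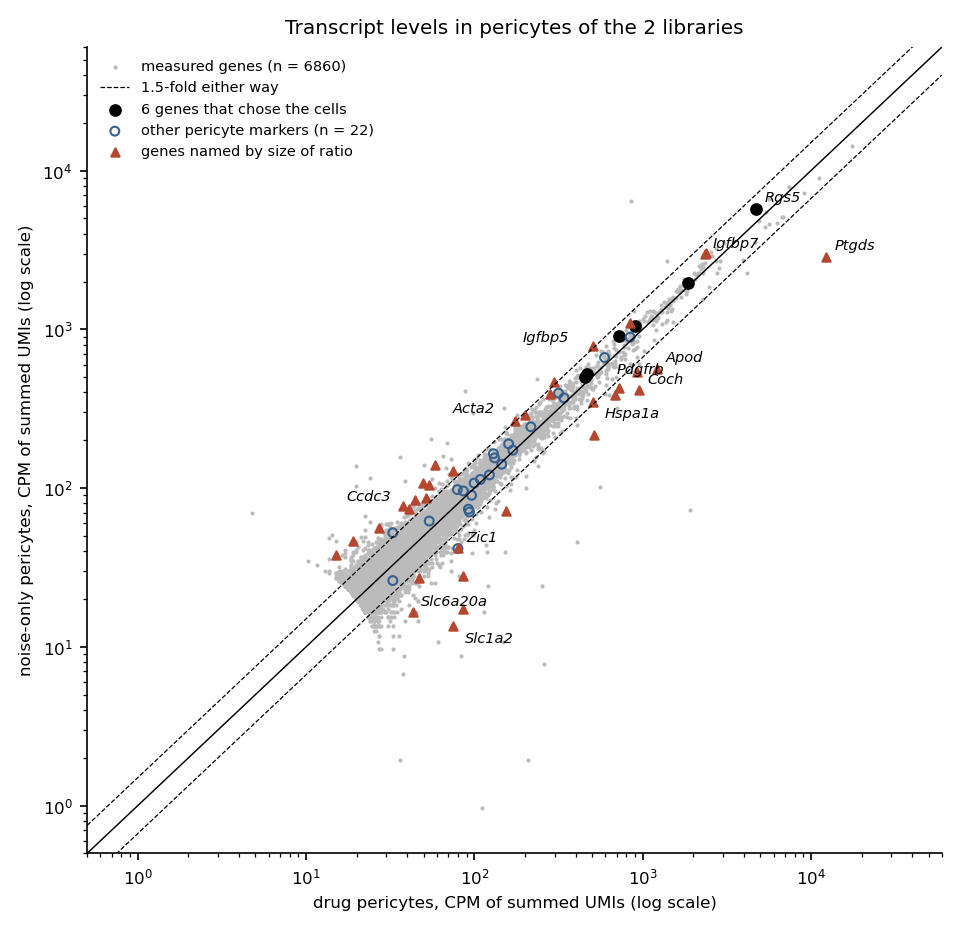
CPM of the summed UMIs of drug pericytes (x axis) and noise-only pericytes (y axis) for 6860 measured genes, on log scales, with equality (solid) and 1.5-fold (dashed) lines. The 6 selecting genes and most of the 22 other pericyte markers lie between the dashed lines, and Ptgds, at 12338 and 2867 CPM, lies to the right of them.

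Other pericyte markers passed 1.5-fold about as often as all genes, of which 4.05% were higher and 4.64% lower. Of 22 measured, 1 (Zic1) was at least 1.5-fold higher and 1 (Enpep) at least 1.5-fold lower in drug pericytes, with a median log2 ratio of -0.12. Zic1 was at 79.8 CPM in drug pericytes and 41.6 CPM in noise-only pericytes, a ratio of 1.92 (1.34 to 2.79), from 117 and 43 UMIs. In the rest of the cells the ratio of Zic1 was close to that, at 1.84 (1.61 to 2.10). Enpep, the aminopeptidase that cuts angiotensin II, was at 32.8 and 52.3 CPM, a ratio of 0.626 (0.416 to 0.942); in thinned cells its ratio was 1.38, and among cells of at least 1000 genes 0.387. Pdgfrb stood at 593 and 664 CPM (ratio 0.893, 0.807 to 0.988) and Notch3 at 341 and 370 CPM (0.921, 0.804 to 1.05). Cspg4, the NG2 proteoglycan, stood at 169 and 173 CPM, a ratio of 0.976 (0.802 to 1.19). Cox4i2 was at 316 and 396 CPM, a ratio of 0.798 (0.697 to 0.914). Slc6a20a, outside the marker list, was at 43.0 and 16.5 CPM, a ratio of 2.61 (1.51 to 4.76), with a UMI in 5.37% of drug and 2.45% of noise-only pericytes and in 1.08% and 0.868% of the rest. Its ratio in the rest was 1.56 (1.30 to 1.88).

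Genes of PDGF, Notch, angiopoietin, VEGF and TGF-beta signalling had a median log2 ratio of -0.14, with 4 higher and 2 lower of 32 measured. Over all genes, 4.05% were higher and 4.64% lower. Angpt1, the Tie2 ligand by which mural cells steady the endothelium, was at 34.8 CPM in drug and 16.5 CPM in noise-only pericytes, a ratio of 2.11 (1.20 to 3.91), from 51 and 17 UMIs, and 7.88 among cells of at least 1000 genes, from 16 UMIs in all. Vegfb was at 78.5 and 47.4 CPM, a ratio of 1.65 (1.17 to 2.36) and of 2.48 in thinned cells, and Vegfa, the main angiogenic ligand, at 17.7 and 28.1 CPM. Tgfb2 stood at 66.9 and 43.6 CPM and the receptor Acvrl1 at 26.6 and 16.5 CPM. Ccn2, a matrix protein under TGF-beta and Yap control, was at 33.4 and 56.2 CPM, a ratio of 0.595 (0.399 to 0.886), and the ratio was 1.24 in thinned cells and 0.361 among cells of at least 1000 genes. Of the Notch targets, Hes1 stood at 334 and 374 CPM, Heyl at 99.6 and 107 CPM and Hey2 at 69.6 and 90.1 CPM, each within 1.5-fold.

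Contractile and tone genes were mostly a little lower in drug pericytes. Of 14 measured contractile genes, 1 was at least 1.5-fold higher, 1 lower and 11 below a ratio of 1, with a median log2 ratio of -0.18. The same genes had a median of -0.20 in smooth muscle cells, which Acta2, Tagln and Lmod1 of this list helped choose. Acta2 was at 174 CPM in drug and 263 CPM in noise-only pericytes, a ratio of 0.661 (0.555 to 0.787). Without the exclusion of Myh11, Cdh5 and Pecam1, which let smooth muscle cells in, it was 1.08. Myl9 was at 792 and 988 CPM (0.802, 0.736 to 0.873), and Des, desmin, at 150 and 204 CPM (0.735, 0.606 to 0.892). Tagln was at 246 and 236 CPM (1.04, 0.881 to 1.23). Lmod1, an actin nucleator, was at 47.1 and 27.1 CPM, a ratio of 1.74 (1.10 to 2.80) from 69 and 28 UMIs.

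Of 17 measured tone receptors and second messengers, 0 passed 1.5-fold and 14 lay below a ratio of 1, with a median log2 ratio of -0.25 against -0.06 over all genes. The nitric oxide receptor was represented by Gucy1a1, at 346 CPM in drug and 446 CPM in noise-only pericytes (0.775, 0.682 to 0.881), and by Gucy1b1 at 409 and 508 CPM. Pde5a, which breaks down cyclic GMP, was at 187 and 230 CPM. The endothelin receptors Ednra and Ednrb stood at 160 and 190 CPM and at 156 and 219 CPM, the second with a ratio of 0.711 (0.589 to 0.858). Pde1a, a calcium-dependent phosphodiesterase, was at 51.9 and 87.2 CPM, a ratio of 0.595 (0.433 to 0.817). Among ion channels and pumps, 1 of 16 was higher and 0 lower. Atp1b1, a sodium pump subunit, was at 596 and 391 CPM (1.52, 1.35 to 1.72), but in only 14.9% and 11.5% of pericytes and 30.6% and 21.6% of other cells.

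Genes of the basement membrane had a median log2 ratio of -0.08, close to that of all genes, with 0 of 19 past 1.5-fold. Col4a1 and Col4a2, its collagen IV chains, were at 315 and 339 CPM and at 243 and 245 CPM. Igfbp7, a vascular matrix protein seen in 92.3% of drug and 95% of noise-only pericytes, was at 2334 and 2982 CPM, a ratio of 0.783 (0.745 to 0.822). Mgp, in 76.4% and 81.8% of pericytes, was at 2369 and 3031 CPM, a ratio of 0.782 (0.744 to 0.821). The small proteoglycan Aspn, asporin, was at 312 and 416 CPM (0.749, 0.655 to 0.856, and 0.498 among cells of at least 1000 genes). Against 4.05% and 4.64% of all genes higher and lower, 0 of 20 fibrillar matrix and remodelling genes were higher and 3 lower, with a median of -0.24. Col1a1 led them, at 50.5 and 139 CPM, but in only 1.44% and 2.45% of pericytes, and its ratio of 0.362 was 0.171 without the cell richest in it. Igfbp5, a growth factor binding protein, was at 508 and 780 CPM, a ratio of 0.651 (0.589 to 0.721), in 25.7% and 35.0% of pericytes and 25.4% and 22.5% of other cells. Ccdc3, a secreted vascular protein, was at 40.9 and 73.6 CPM, a ratio of 0.556 (0.390 to 0.791). Btbd3 and the cytoskeletal septin Sept7, both more frequent in pericytes than in the rest, were at 201 and 287 CPM (0.70, 0.594 to 0.825) and at 842 and 1096 CPM (0.768, 0.708 to 0.834).

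**Figure D4:**
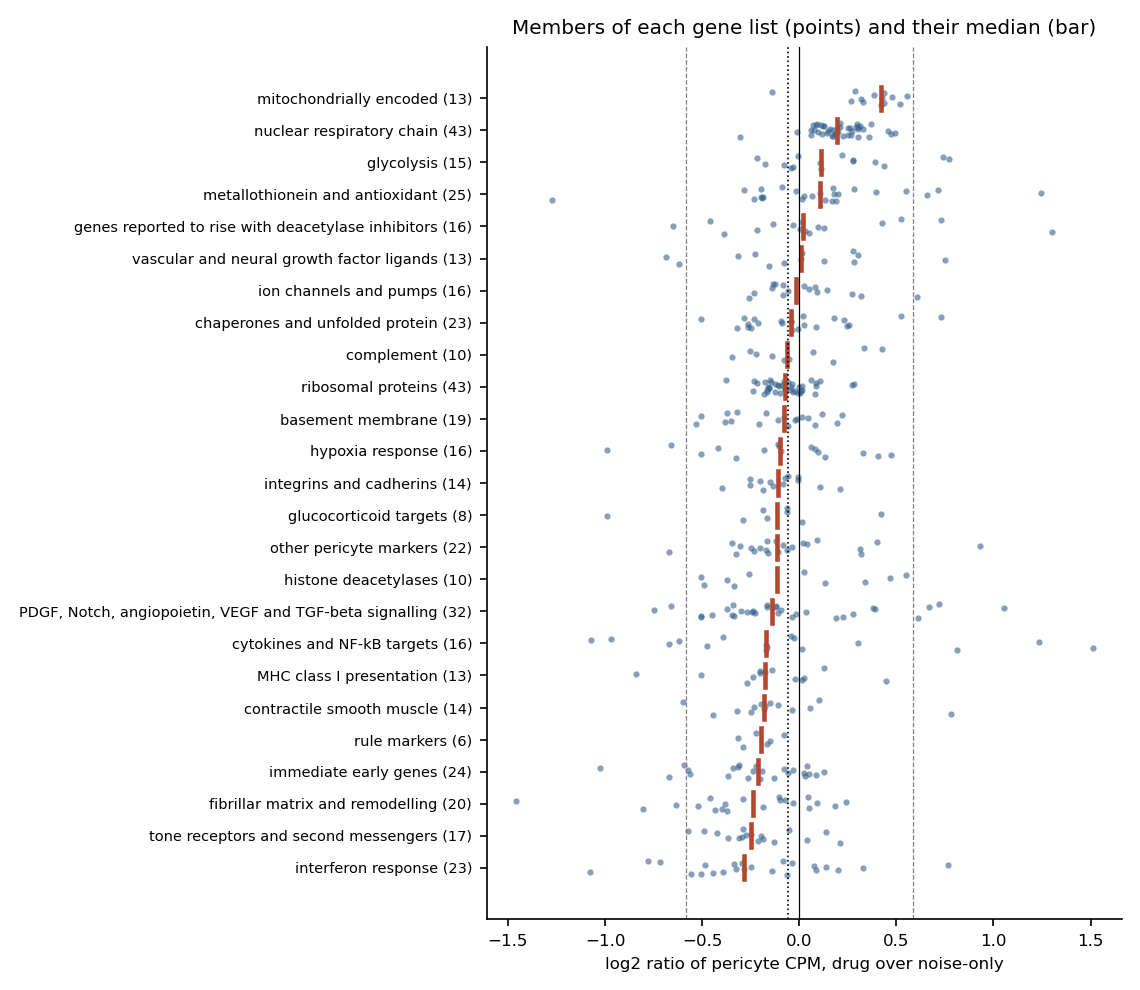
Log2 ratio of pericyte CPM, drug over noise-only, for each measured member of each gene list other than the markers of other cell types (points, number in brackets) with the list's median (bar). The dotted line is the median of all measured genes (-0.06) and dashed lines mark 1.5-fold; of the lists plotted, mitochondrially encoded genes have the highest median (0.42) and interferon response genes the lowest (-0.29).

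Most respiratory chain genes had ratios above 1, with 0 past 1.5-fold. Of 13 mitochondrially encoded transcripts, 12 had a ratio above 1 and 0 passed 1.5-fold, with a median log2 ratio of 0.42. mt-Nd2, a complex I subunit, was at 3917 CPM in drug and 2733 CPM in noise-only pericytes, a ratio of 1.43 (1.37 to 1.5). mt-Nd4l was at 2286 and 1554 CPM (1.47, 1.39 to 1.56). Mitochondrial UMIs were a median 6.81% of a drug pericyte and 4.48% of a noise-only pericyte, and 6.52% and 4.79% of all quality-filtered cells. A higher mitochondrial share can also reflect cell damage, whose part was not tested. Of 43 nuclear respiratory chain genes, 41 were above 1 and 0 passed 1.5-fold, with a median of 0.19, and of 0.07 at no more than 3000 UMIs per cell. Cox5a was at 691 and 503 CPM (1.37, 1.24 to 1.53). Ndufa4 was at 931 and 671 CPM (1.39, 1.26 to 1.52), while its pericyte relative Ndufa4l2 had a ratio of 0.805 (0.736 to 0.879). Both Ndufa4 and Cox5a were more widely seen outside pericytes, in 63.6% and 59.9% of other cells for Ndufa4 against 33.6% and 27.2% of pericytes.

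Of 16 genes on the hypoxia response list, 0 were higher and 2 lower, with a median log2 ratio of -0.10. That list also holds the respiratory chain subunits Ndufa4, its highest member at 0.47, and Cox4i1 at 0.10. Its median is therefore not one of hypoxia-induced genes alone, and Ndufa4 is counted among the nuclear respiratory chain genes too. Of 15 glycolysis genes, 2 were higher and 0 lower, with a median of 0.11. Aldoc was at 64.8 CPM in drug and 37.8 CPM in noise-only pericytes (1.72, 1.17 to 2.56, and 5.40 in thinned cells), and Ldha at 184 and 208 CPM (0.885, 0.737 to 1.06).

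Immediate early, interferon, cytokine and MHC class I genes had medians below that of all genes in the main values, though not in every setting. Of 24 immediate early genes, 0 were at least 1.5-fold higher and 3 lower, against 4.05% and 4.64% of all genes, with a median log2 ratio of -0.21. Egr1 was at 2413 CPM in drug and 2989 CPM in noise-only pericytes (0.807, 0.769 to 0.847), while Fos was at 5396 and 5518 CPM and Jun at 2877 and 2706 CPM. Gadd45b, a stress-induced regulator of growth arrest, was at 297 and 466 CPM, a ratio of 0.637 (0.559 to 0.727), in 24.8% and 35.6% of pericytes. Of 23 interferon response genes, 1 was higher and 3 lower, with a median of -0.29. Ifit1 was at 71.0 and 122 CPM (0.582, 0.444 to 0.760), and Ifi27l2a at 920 and 540 CPM (1.70, 1.54 to 1.88), with a UMI in 44.1% and 32.6% of other cells. Of 16 cytokines and NF-kB targets, 3 were higher and 4 lower, with a median of -0.17. That median was 0.07 at no more than 3000 UMIs per cell and 0.09 by the mean of each cell's CPM. Cxcl1, a neutrophil-attracting chemokine, was at 283 and 392 CPM (0.720, 0.627 to 0.828, and 0.420 among cells of at least 1000 genes), in 17.8% and 23.4% of pericytes. Il11 had 0 UMIs in drug and 31 in noise-only pericytes, below the minimum of 50. Of 13 genes of MHC class I presentation, 0 were higher and 1 lower, Psmb8, an immunoproteasome subunit, at 43.7 and 78.4 CPM (0.557, 0.395 to 0.783). Their median was -0.18, and -0.02 at no more than 3000 UMIs per cell.

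Heat shock and deacetylase genes were examined because VPA is a common short form of valproic acid, which blocks histone deacetylases. Of 23 chaperone and unfolded protein genes, 1 was at least 1.5-fold higher and 0 lower. That gene was the inducible chaperone Hspa1b, at 134 CPM in drug and 80.4 CPM in noise-only pericytes (1.66, 1.28 to 2.18). Its neighbour Hspa1a, nearly identical in sequence, was at 504 and 351 CPM (1.44, 1.27 to 1.63). How the deposited counting divided reads between the pair is not stated. Of 10 histone deacetylase genes, 0 passed 1.5-fold, with a median log2 ratio of -0.12. Hdac1 was at 58.7 and 82.3 CPM (0.713, 0.522 to 0.974) and Hdac5 at 45.7 and 31.0 CPM (1.48, 0.955 to 2.32). Of 16 genes reported to rise with deacetylase inhibitors, 2 were higher (Stmn2 and Hspa1b), 1 was lower (Gadd45b) and the median was 0.02, against 4.05% and 4.64% of all genes higher and lower. Stmn2, a neuronal microtubule regulator, was at 96.2 and 38.7 CPM (2.48, 1.74 to 3.62), and its ratio was 7.99 without doublets. It had a UMI in only 2.59% of drug and 1.22% of noise-only pericytes. Of 7 measured neuron markers, Stmn2 among them, 5 were at least 1.5-fold higher, and the sum of all 10 listed stood at 1346.5 and 840 CPM, a ratio of 1.60 (1.48 to 1.74); their part in the Stmn2 ratio was not tested.

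Most of the largest ratios among widely detected genes belonged to transcripts known from other cell types. Ptgds, prostaglandin D synthase, was at 12338 CPM in drug and 2867 CPM in noise-only pericytes, a ratio of 4.30 (4.14 to 4.47), and at 21290 and 15618 CPM in the rest of the cells. It had a UMI in 75.5% and 53.1% of pericytes, close to the 72.3% and 52.1% of endothelial cells. Its UMIs were concentrated: 87 (8.34%) drug and 18 (2.75%) noise-only pericytes with at least 20 Ptgds UMIs held 87.3% and 68.9% of them. In pericytes with a Slc6a20a UMI, a split chosen after the values were seen, 56 in the drug and 16 in the noise-only library, Ptgds stood at 67045 and 2178 CPM. In pericytes without one it stood at 7802 and 2886 CPM, a ratio of 2.70 (2.59 to 2.82). Coch, a fibrocyte matrix protein, was at 951 and 413 CPM (2.30, 2.06 to 2.57), in 18.5% and 11.6% of pericytes and 26.5% and 17.0% of other cells. Otos, another fibrocyte gene, was at 405 and 45.5 CPM, and the fibrocyte transporter Slc4a11 had 163 UMIs in drug and 1 in noise-only pericytes, a ratio of 115 (20.3 to 4565). Across the alternative settings the ratio of Otos ran from 4.90 to 32.9 and that of Slc4a11 from 17.0 to 202. The 10 fibrocyte markers summed to 3388 and 1678 CPM in pericytes and to 6946 and 4972 CPM in the rest.

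Astroglial and melanocyte-type transcripts followed. Slc1a2, a glutamate transporter, was at 74.4 CPM in drug and 13.6 CPM in noise-only pericytes (5.49, 3.13 to 10.4), in 6.62% and 1.53% of pericytes and 8.15% and 3.2% of other cells, and its ratio ran from 3.28 to 8.70 across the alternative settings. Dct, a melanin enzyme of strial intermediate cells, was at 719 and 430 CPM, a ratio of 1.67 that was 1.06 without cells marked as doublets. Apod, a lipid carrier of glia and fibroblasts, was at 1224 and 566 CPM, a ratio of 2.16, and 1.30 with 2 selecting genes as the threshold. The gap-junction gene Gjb6, Ppp1r1a, Hhatl and S100b, a calcium-binding protein of glia, had ratios of 3.06, 4.89, 2.16 and 1.76. The ratio of Gjb6 was 5.05 in thinned cells and that of Ppp1r1a 10.7 without doublets. Gsta4, a glutathione transferase, was at 512 and 216 CPM (2.37, 2.04 to 2.77). In the other direction, several less abundant genes were lower. Enpp2 (autotaxin) had a ratio of 0.413 and was also at 0.464 and 0.223 in endothelial and smooth muscle cells. Nab2, a corepressor of Egr factors, was at 15.0 and 37.8 CPM (0.398, 0.225 to 0.687), and Cyp51, of cholesterol synthesis, at 53.9 and 105 CPM (0.516, 0.381 to 0.696). Tubb4a, Gstm2, Ezr, Tcim, Selenbp1 and Fabp5 lay between 0.411 and 0.582. In thinned cells the ratio of Ezr was 2.01, of Tubb4a 0.842 and of Fabp5 0.892, and at no more than 3000 UMIs per cell that of Enpp2 was 0.723 and of Selenbp1 0.804. That of Gstm2 was 0.657 without the exclusion of Myh11, Cdh5 and Pecam1. Ttr, transthyretin of the choroid plexus, had a UMI in 2.21% and 20.8% of pericytes and in 2.42% and 22.7% of other cells. Its ratio of 0.215 ran from 0.023 to 0.481 across the alternative settings. For Ptgds, Coch, Slc1a2, Dct, Apod and Ttr the share of pericytes with a UMI lay on the same side in both groups as the share of other cells, and the part of free RNA in these ratios was not tested.

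Set beside the most alike populations, pericytes gave the following ratios of drug over noise-only CPM. Igfbp7 had a ratio of 0.783 in pericytes, 0.827 in endothelial cells and 0.982 in smooth muscle cells. Gadd45b stood at 0.637 in pericytes, 0.921 in endothelial and 0.663 in smooth muscle cells, and Gucy1a1 at 0.775, 0.840 and 0.799 in the same order. Hspa1a was at 1.44, 1.40 and 1.05. Mitochondrially encoded genes had median log2 ratios of 0.42 in pericytes, 0.55 in endothelial and 0.25 in smooth muscle cells. The same 43 respiratory chain genes had medians of 0.19, -0.04 and 0.07, and the 17 tone genes -0.25, -0.11 and -0.00. The 14 contractile genes had medians of -0.18, 0.11 and -0.20, and the 24 immediate early genes -0.21, -0.04 and -0.28. Those 2 lists were thus as low in smooth muscle cells as in pericytes or lower. Acta2, Tagln and Lmod1 of the contractile list helped choose the smooth muscle cells, so its median there rests in part on selecting genes. The same 22 other pericyte markers had medians of -0.12 in pericytes and -0.15 in smooth muscle cells. None of these differences between populations has a test, since each population is 1 pool per group.

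**Figure D5:**
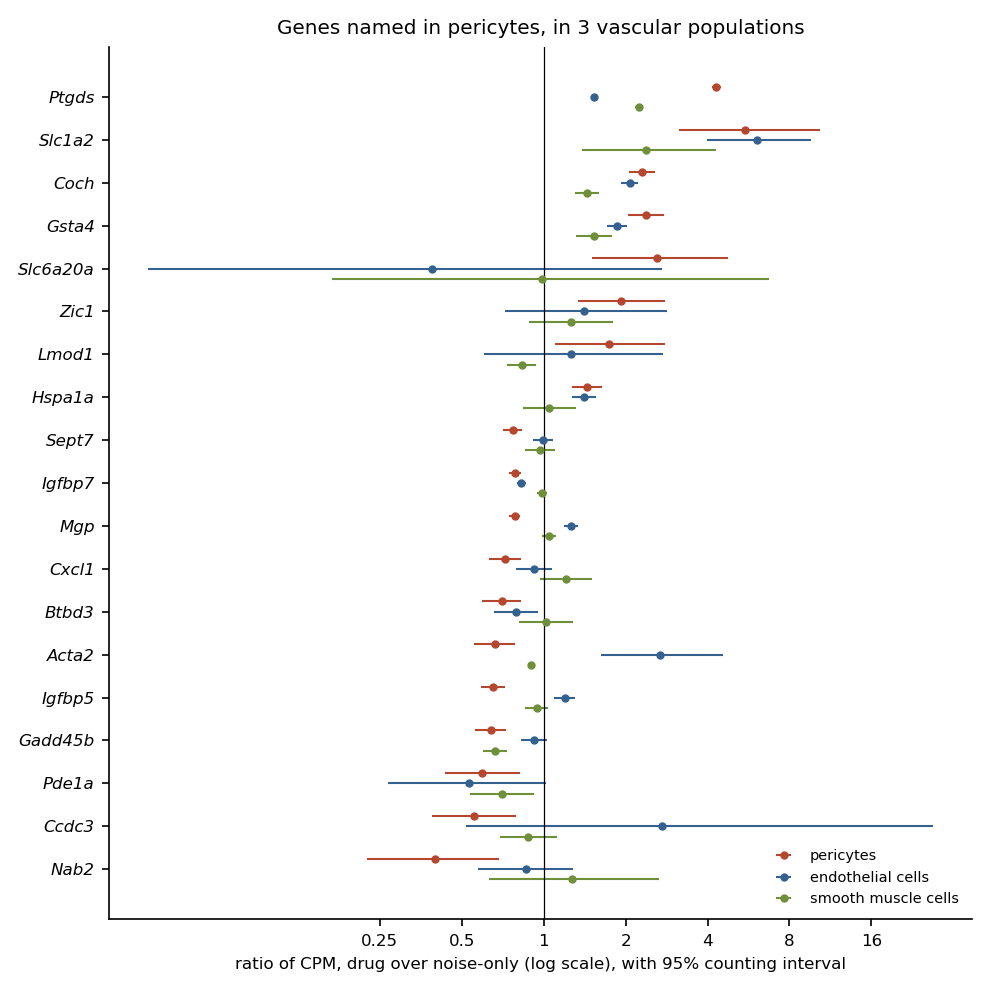
Ratio of CPM, drug over noise-only, on a log scale with 95% counting intervals, in pericytes, endothelial cells and smooth muscle cells for genes named in pericytes. Ptgds is above 1 in all 3 populations and Gadd45b is below 1 in all 3. Lmod1 is 1.74 in pericytes but 0.831 in smooth muscle cells, which it helped choose.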

How the data were processed

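Droplet RNA was measured in 1 library per group, each of 5 pooled ears. The authors deposited raw counts of UMIs for each gene and barcode, which were not normalized, per the file headers and by their whole-number values. The files were made by Cell Ranger 5.0.1, per the file headers. The submitters' processing notes name Cell Ranger 5.0, Seurat 3.2.2, STAR and the builds GRCm38 and mm10 without saying what each did. The step that kept barcodes is not stated. About 20000 cells were stated as recovered, against 21773 drug and 18545 noise-only barcodes, of which 20133 and 17423 passed the filter.

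The members and gene lists were chosen with earlier results of these data known. UMIs were summed over the pericytes of a library and divided by their total to give CPM. Ratios carry exact conditional binomial 95% intervals, shares exact Clopper-Pearson intervals, and log2 ratios 0.5 UMI added to each sum, as do ratios under alternative settings. Smooth muscle cells had Myh11, at least 2 of Acta2, Tagln, Cnn1, Lmod1 and Pln, and no Cdh5 or Pecam1. Endothelial cells had at least 3 of Cldn5, Pecam1, Cdh5, Flt1, Egfl7, Emcn and Ly6c1, and no Vtn, Higd1b, Kcnj8 or Myh11. Genes needed 50 UMIs over both sums. Named were up to 12 genes per direction past 1.5-fold, ranked by the interval bound nearest 1, with a UMI in at least 5% of pericytes where higher and at most 20% of UMIs in 1 cell. Added to them were up to 8 per direction past 1.25-fold whose share of pericytes was at least 2 times that of the rest, all other pericyte markers, and up to 2 members per direction of each list. Some genes are not reported here. Genes named besides these were chosen after their values were seen. Mitochondrial, ribosomal, haemoglobin, immunoglobulin, sex-linked and unnamed genes stayed out of the ranking. Doublets were kept in the main values. Scrublet in scanpy 1.11.5 (expected rate 0.08) marked them for an alternative.

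The steps were tested on simulated data. Values were recomputed under 17 other settings, and under a limit of 3000 UMIs per cell that was added after the data were seen. Software was scipy 1.17.1, numpy 2.4.6, pandas 2.3.3 and matplotlib 3.10.9 in Python 3.11.15. Scaling factors came from edgeR 4.0.16 and DESeq2 1.42.0 in R 4.3.3.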

Additional observations from a re-analysis of the deposited data

Results flagged for a closer look

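For 27 of 168 named genes the drug over noise-only ratio lay on one side of 1 in pericytes and on the other in endothelial or smooth muscle cells, with each counting interval clear of 1. The same count was not made over all measured genes, and many named genes were picked by the size of their pericyte ratio. The count therefore has no background to be read against. The difference between populations was not tested, and each population is 1 pool per group. Of the genes that chose the pericytes or mark them, Rgs5 was 0.817 in pericytes and 1.63 in endothelial cells. Pdgfrb was 0.893 and 1.501, and Aspn 0.749 and 3.12, the last from 25 endothelial UMIs. Rgs5 had a UMI in only 4.94% of drug and 3.3% of noise-only endothelial cells, and Pdgfrb had 117 endothelial UMIs. In the rest of the cells the ratio of Rgs5 was 1.96 (1.85 to 2.06) and that of Pdgfrb 1.03 (0.956 to 1.12). Acta2 was 0.661 in pericytes and 2.67 in endothelial cells, where it was in 1.97% of drug and 1.23% of noise-only cells. Mgp was 0.782 in pericytes and 1.255 in endothelial cells. Lmod1 was 1.74 in pericytes, from 69 and 28 UMIs, and 0.831 in smooth muscle cells, which it helped choose. Among signalling and matrix genes, Ednrb was 0.711 in pericytes and 1.29 in endothelial cells, Igfbp5 0.651 and 1.19, and Ptn, the growth factor pleiotrophin, 1.22 and 0.896. Ccn2 was 0.595 in pericytes, 1.30 in endothelial cells and 4.11 in smooth muscle cells.

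Of energy, early response and immune genes, Ndufa4 was 1.39 in pericytes and 0.917 in endothelial cells, and Cox5a 1.37 and 0.880. Jun was 1.06 in pericytes and 0.855 in smooth muscle cells, the chemokine Cxcl10 0.473 and 2.42, and B2m, of MHC class I, 0.830 and 1.21. Fth1, ferritin heavy chain, was 0.941 in pericytes, 1.14 in endothelial cells and 1.05 in smooth muscle cells.

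Other genes are known mainly from other cell types or are widely expressed. Tubb4a was 0.464 in pericytes, 2.17 in endothelial cells and 1.93 in smooth muscle cells, and Fabp5 0.582, 2.90 and 1.48 in the same order. Gstm2 was 0.411 in pericytes and 1.65 in smooth muscle cells. The neuronal genes Stmn2, Nefl and Pvalb were 2.48, 1.74 and 1.46 in pericytes and 0.719, 0.714 and 0.766 in endothelial cells. The endothelial genes Ctla2a and Ly6c1 were 3.19 and 2.18 in pericytes and 0.862 and 0.899 in endothelial cells, which Ly6c1 helped choose. The neutrophil gene Retnlg was 0.272 in pericytes and 1.77 in endothelial cells. Retnlg had a UMI in only 0.767% of drug and 0.765% of noise-only pericytes. Its pericyte ratio ran from 0.051 to 0.605 across the alternative settings. The haemoglobin genes Hbb-bt and Hba-a2 were 1.85 and 1.30 in pericytes and 0.788 and 0.799 in smooth muscle cells. Their pericyte ratios ran from 1.33 to 5.04 and from 1.15 to 5.43 across the alternative settings. Hbb-bt had a UMI in 7.48% of drug and 6.88% of noise-only pericytes, and Hba-a2 in 10.7% and 9.48%. At no more than 3000 UMIs per cell the pericyte ratios were 0.723 for Tubb4a, 0.859 for Fabp5 and 0.629 for Gstm2, against 0.621 for Acta2, 0.749 for Mgp, 1.66 for Lmod1 and 0.660 for Igfbp5.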

How the results depend on the processing

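No paired analysis was possible because each group is 1 pooled library with 1 replicate number. The pericyte share ratio of 1.38 was 1.19 with at least 4 selecting genes, 1.21 with 3 selecting genes other than Rgs5 and 1.20 at 1000 genes per cell. The share among vascular cells, 0.997, was 0.887 and 0.898 under the first 2 of these settings. Against 278 higher and 318 lower genes there were 145 and 205 in thinned cells, 763 and 863 at 20 UMIs, 43 and 35 at 200 UMIs and 3512 and 2831 with no minimum beyond 1 UMI, and 489 were higher by the mean of each cell's CPM. Ratios crossed 1 for Ibsp with at least 4 selecting genes (1.55) and without Rgs5 (1.51), and for Acta2 (1.08) and Ly6c1 (0.987) without the exclusions. At no more than 3000 UMIs per cell they crossed for Ezr (1.01), Igf1 (1.09), Cxcl10 (1.01), Ngp (0.330) and Slc26a4 (0.440), and in thinned cells for Ezr (2.01), Enpep (1.38), Ccn2 (1.24) and Igf2 (0.797); the cause was not tested. List medians ranged over all settings from -0.42 to -0.13 for tone genes, -0.51 to -0.05 for contractile genes, -0.54 to -0.14 for interferon genes, -0.28 to -0.12 for immediate early genes, 0.11 to 0.55 for mitochondrially encoded genes and 0.07 to 0.33 for nuclear respiratory chain genes. Those of cytokines and NF-kB targets ranged from -0.34 to 0.09 and those of MHC class I genes from -0.26 to -0.02. The median of the deacetylases, -0.12, was 0.47 at no more than 3000 UMIs per cell. Genes near 50 UMIs allow wide counting intervals, and no setting replaces a second library per group.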
